A study of Mus musculus with 6 samples.

Results

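The 36 genes described here encode the working parts of the lysosome: 11 peptidases, 6 glycosidases, 6 proteins of lipid breakdown, sterol transport and precursor supply, 5 membrane proteins, 1 calcium channel with 2 transcription factors, and 5 parts of the proton pump. They were taken by gene symbol from a table of 52459 genes, in which each symbol occurred once, and all 36 had enough reads to be tested, among 14857 tested genes. The cells were C57BL/6 mouse bone marrow derived macrophages, plated with GM-CSF, a growth factor under which marrow precursors become macrophages and other myeloid cells. From day 7 of culture they received either DMSO, the solvent, or RIP1i overnight, and 3 libraries were made from each group. RIP1 is a kinase that relays signals from the TNF receptor, and the comparison asks how RIP1i alters the macrophage transcriptome. The labels name neither the compound nor its dose. They do not say whether the 3 libraries of a group came from separate animals or cultures, so p-values reflect how far these libraries differ from each other, a spread that may be technical.

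Lysosomes are acidic compartments in which proteins, glycans and lipids taken up from outside or delivered by autophagy are broken down. A proton pump, the V-ATPase, keeps the lumen acidic, which most of the enzymes need in order to work and the cathepsin precursors need in order to mature. The transcription factors TFEB and TFE3 bind E-boxes with the core CACGTG in promoters of lysosomal genes, and their entry into the nucleus is controlled mainly at the protein level by the kinase complex mTORC1. Macrophages are rich in lysosomes, since they digest engulfed particles and cut antigens for presentation on MHC class II.

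Library totals ran from 40264902 to 44862310 counts, and the lowest count of any of the 36 genes in any library was 1997. Chi-square values per degree of freedom between libraries of the same group were 12.3 to 18.3 for DMSO and 29.6 to 35.7 for RIP1i, so no pair agreed within sampling noise and the RIP1i libraries differed more among themselves. All 9 macrophage markers were present, with summed levels of 50855 to 58756 CPM in DMSO and 44151 to 53698 CPM in RIP1i (CPM, library-scaled counts with TMM factors), mostly from Lyz2. The T cell gene Cd3e and the NK cell gene Ncr1 had at most 1 count in any library, and the immunoglobulin gene Ighm was at 18.9 to 24.9 CPM. All 10 stromal markers were detected and varied most between libraries, with sums of 83.9 to 361 CPM in DMSO and 76.8 to 230 CPM in RIP1i. All 9 neutrophil markers were detected, with sums of 226 to 624 CPM in DMSO and 223 to 656 CPM in RIP1i. The 8 dendritic cell markers summed to 1217 to 1375 CPM in DMSO and 1325 to 1466 CPM in RIP1i. Nearly all of this was Itgax, which macrophages also express. Flt3, Xcr1, Clec9a, Zbtb46 and Dpp4 each stayed between 0.0725 and 11.96 CPM. Ccr7 was higher, up to 19.3 CPM in DMSO replicate 3. Cd209a ran from 4.53 CPM in DMSO replicate 2 to 18.6 CPM in RIP1i replicate 2. The 8 mast cell, basophil and eosinophil markers summed to 170 to 208 and 175 to 211 CPM, mostly from Kit. These sums are therefore no measure of how many such cells were present. In bulk RNA, fewer cells of a type and less RNA per cell cannot be told apart.

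Lysosomal transcripts made up a large part of the macrophage transcriptome. The 36 genes held 7.48%, 7.51% and 7.48% of all counts in DMSO replicates 1 to 3 and 7.59%, 7.53% and 7.57% in RIP1i replicates 1 to 3. On these raw totals the 3 RIP1i libraries lay above the 3 DMSO libraries, by a margin that was small beside the share itself. The TMM factors, not used in these shares, ran from 0.9775 to 1.015 and so differed more between libraries than the shares did. After TMM scaling the order was not kept. The median deviation of the 36 genes from their means was -0.038 on the log2 scale in RIP1i replicate 2. It was -0.023 to 0.016 in the DMSO libraries. The peptidases alone held 3.16% to 3.36% of the counts of a library, the lipid and precursor genes 2.25% to 2.36%, the membrane proteins 1.22% to 1.32%, the glycosidases 0.356% to 0.372%, the proton pump genes 0.327% to 0.342%, and the channel and the transcription factors together 0.0205% to 0.022%.

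Levels of different genes were compared in FPKM, which is scaled to gene length. By mean FPKM over the 6 libraries, 13 of the 36 genes were among the 100 highest genes of the whole table and 31 were among the 1000 highest. Ctss, which encodes cathepsin S, the cysteine protease that trims the invariant chain of MHC class II, ranked 4 in the table with 7773 to 8835 FPKM across libraries. Psap, the precursor of the saposins that activate sphingolipid hydrolases, ranked 8 with 6364 to 6641 FPKM, and Ctsd, the aspartic protease cathepsin D, ranked 12 with 3233 to 3621 FPKM. Below these 3 the next 3 could not be ordered, because their libraries overlapped. They were Gpnmb, a transmembrane glycoprotein of lysosomes and melanosomes, at 1089 to 1247 FPKM, Ctsz at 1031 to 1167 FPKM and Ctsb at 1030 to 1116 FPKM, both cysteine cathepsins.

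Lamp1, the most familiar lysosomal membrane glycoprotein, followed at 844 to 897 FPKM, clear of its neighbours on either side. Hexa, the alpha chain of beta-hexosaminidase, was at 498 to 556 FPKM, and Grn, the granulin precursor progranulin, at 458 to 496 FPKM. Then came Laptm5, a lysosomal membrane protein of blood cells, at 416 to 439 FPKM, Lgmn, the asparaginyl endopeptidase legumain, at 396 to 434 FPKM, and Lipa, lysosomal acid lipase, at 345 to 424 FPKM, with overlapping ranges. A further 16 genes ran from Atp6v0d2, a pump subunit, at 303 to 336 FPKM, down to Lamp2, the partner of Lamp1, at 73.5 to 92.5 FPKM. They included Ctsa, a serine carboxypeptidase, at 294 to 324 FPKM, and Npc2, which hands cholesterol to Npc1, at 276 to 298 FPKM. Glb1 (beta-galactosidase), Tpp1 (a tripeptidyl peptidase), Neu1 (sialidase), Npc1 (the membrane protein of sterol export) and Gaa (acid alpha-glucosidase) lay between 22.2 and 56.7 FPKM.

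The regulators stood lowest. Mcoln1, the lysosomal calcium channel, was at 10.5 to 11.3 FPKM, Tfeb at 8.74 to 9.78 FPKM and Tfe3 at 7.59 to 9.30 FPKM, and the ranges of the factors overlapped. Their relatives Mitf and Tfec, which belong to the same family, were at 12.5 to 15.01 and 26.8 to 30.6 FPKM, above Tfeb in each library.

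**Figure D1:**
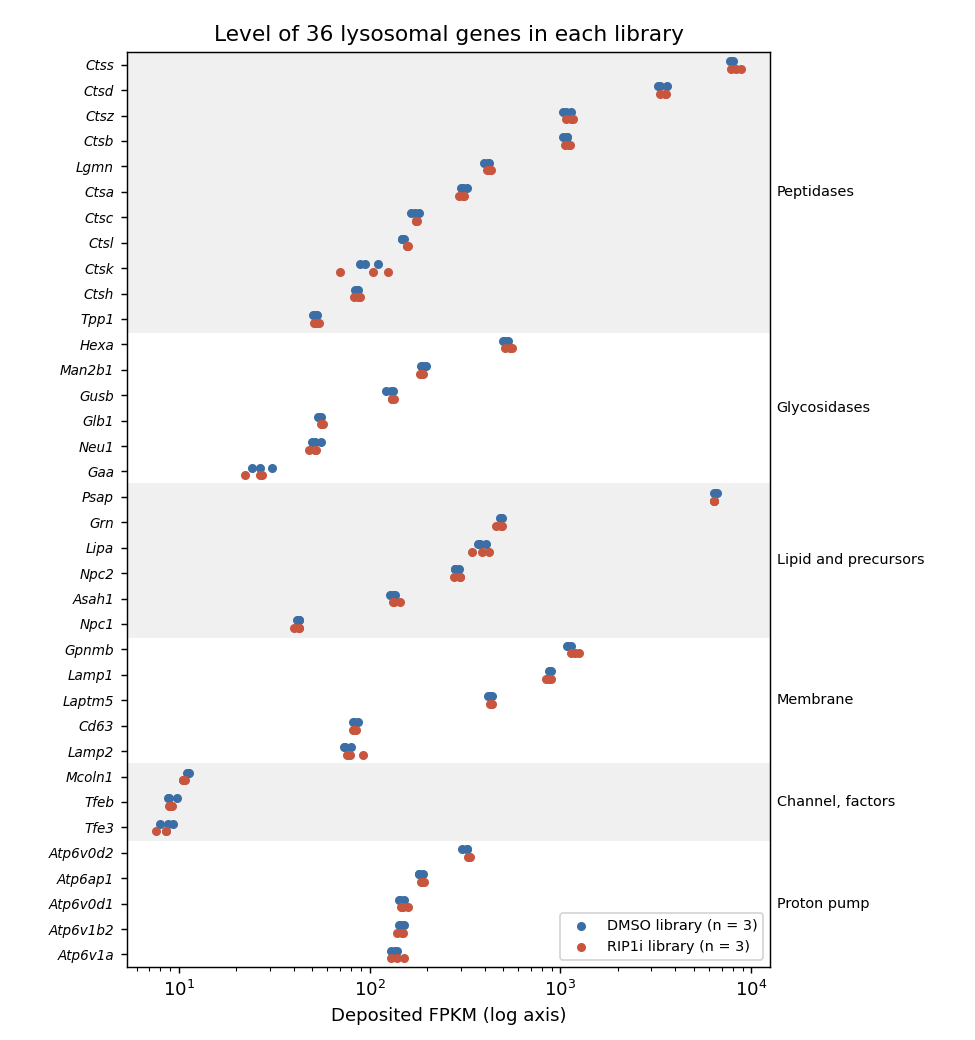
Deposited FPKM (horizontal log axis) of the 36 lysosomal genes (rows, grouped by role) in each of 3 DMSO libraries (blue) and 3 RIP1i libraries (red). The genes span from about 8 FPKM for the transcription factors to 8835 FPKM for Ctss, and the libraries of a gene mostly lie on top of each other, with Ctsk spread from 70.1 to 124 FPKM.

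Promoter sequences from RefSeq (GRCm38.p6, the assembly of mm10), running from 250 bases before to 50 bases after each annotated start, were found for 30 of the 36 genes. The others were Ctsb, Ctsh, Asah1, Npc1, Atp6v0d2 and Atp6v1b2. The E-box core CACGTG, which reads the same on both strands, occurred in the promoters of 10 of the 30 genes (33.3%), against 2187 of 27025 genes in the whole promoter table (8.09%). The longer TCACGTGA, also its own reverse complement and containing the core, occurred in 5 of 30 (16.7%) against 304 of 27025 (1.12%). The 5 genes with the longer form follow here, together with Lamp1, which holds the core only but had the most matches, so that the core can be read in its surroundings. Each stretch runs 5′ to 3′ on the strand of its gene, with the core in capitals. Distances are from the RefSeq start to the first base of the core. The core of Atp6v0d1, which begins 3 bases before its RefSeq start, therefore runs across that start. GENCODE M21, which gives the gene positions printed below, places some starts further upstream. By its positions the stretches of Ctsa, Ctsd and Atp6v1a lie within the gene. The same holds for the Mcoln1 stretch 45 bases before the RefSeq start.
Ctsa (chr2:164833749-164833778, plus strand, 12 bases before the start): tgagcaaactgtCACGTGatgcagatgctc
Ctsd (chr7:142387908-142387937, minus strand, 98 bases before the start): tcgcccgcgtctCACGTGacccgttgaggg
Lamp1 (chr8:13159088-13159150, plus strand, first match 61 bases and last 28 bases before the start): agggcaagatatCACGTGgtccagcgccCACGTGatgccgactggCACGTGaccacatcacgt
Mcoln1 (chr8:3500436-3500465, plus strand, 71 bases before the start): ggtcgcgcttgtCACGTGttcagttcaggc
Mcoln1 (chr8:3500462-3500491, plus strand, 45 bases before the start): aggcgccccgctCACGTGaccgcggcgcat
Atp6v0d1 (chr8:105566050-105566079, minus strand, 3 bases before the start): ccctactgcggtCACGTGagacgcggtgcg
Atp6v1a (chr16:44139373-44139402, minus strand, 131 bases before the start): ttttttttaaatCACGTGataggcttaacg

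Lamp1 had another match 15 bases before the start. Ctsa had another just after the start, and Ctsd a further one 245 bases before it. The other 4 genes with the core alone were Ctsl, Lgmn, Gaa and Glb1. Genes with and without the core were close in the comparison of RIP1i with DMSO. The 10 with it had a median log2 fold change of 0.042, with 6 fitted higher in RIP1i, and the 20 without it had a median of 0.025, with 13 fitted higher. A match is a description of the letters in this window and shows neither binding nor its absence.

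None of the 36 genes differed between RIP1i and DMSO past the threshold of the test. With edgeR's quasi-likelihood test, 0 of 36 had a Benjamini-Hochberg adjusted p under 0.05, as did 0 of all 14857 tested genes (0%), and the smallest adjusted p among the 36 was 0.786. With no adjustment, 0 of the 36 had a p under 0.05, against 923 of all tested genes (6.21%). DESeq2 called 2 genes and limma-voom 0 over the whole table, neither including any of the 36. Positive log2 fold changes mean a higher level in RIP1i, and 23 of the 36 (63.9%) were fitted higher in RIP1i, against 51% of all tested genes. Their median log2 fold change was 0.027, against 0.0025 over all tested genes, and the fitted values ran from -0.10 for Gaa to 0.13 for Lamp2.

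The data bounded the differences narrowly. For 34 of the 36 genes, all but Ctsk and Gaa, both ends of the 95% confidence interval were less than 1.25-fold from no difference, and for all 36 they were less than 1.5-fold from it. Over all tested genes, many of them with far fewer reads, these shares were 54.8% and 73%. The median coefficient of variation over the 6 libraries was 3.54% for the 36 genes and 7.77% for all tested genes. For 23 of the 36 the difference between the group means of log2 CPM was smaller than 1 pooled SD. The ranges of the 2 groups were separate for 4 of the 36, with 3 genes higher in RIP1i (Ctsl, Gpnmb and Atp6v0d2) and 1 lower (Mcoln1), where 13.5% of all tested genes did not overlap (7.36% higher and 6.18% lower).

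**Figure D2:**
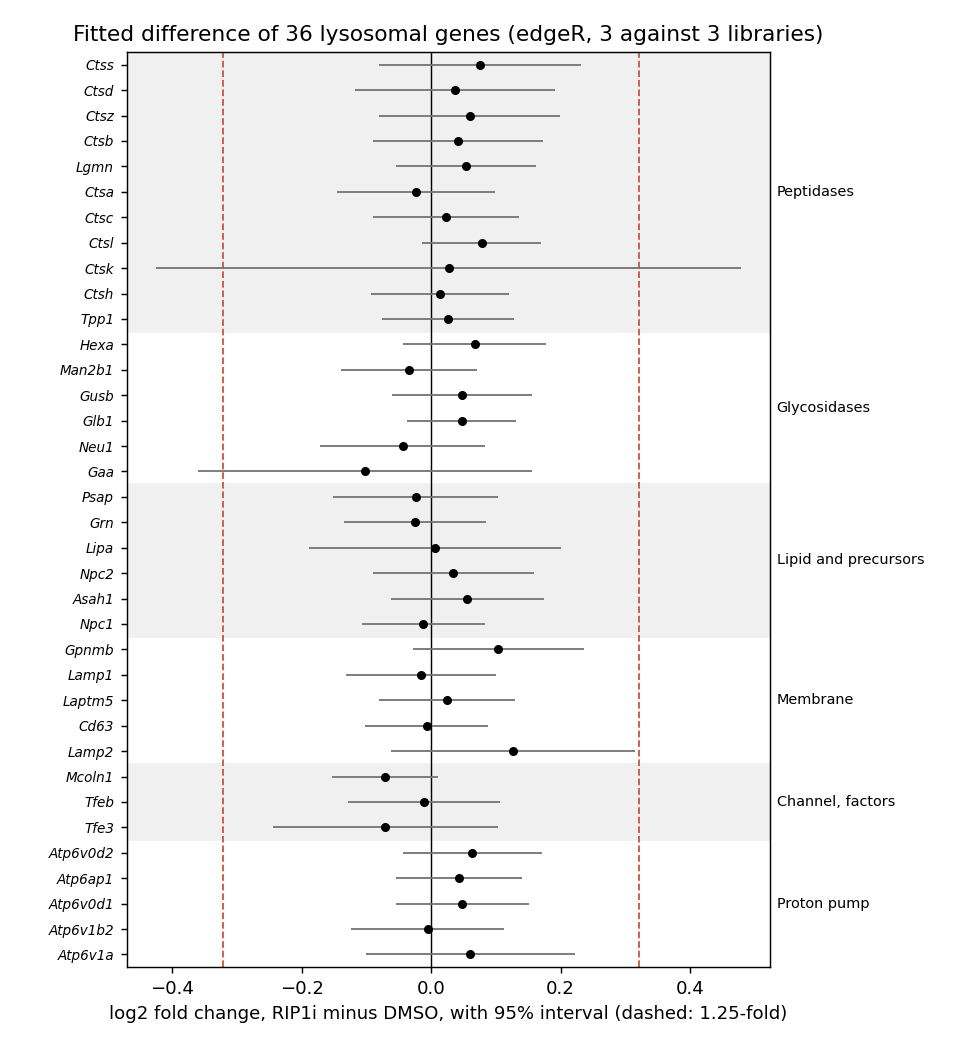
Fitted log2 fold change (RIP1i minus DMSO, horizontal axis) with its 95% confidence interval for the 36 genes (rows, grouped by role), from edgeR on 3 DMSO and 3 RIP1i libraries, with dashed lines at 1.25-fold in either direction. Every interval includes 0, and only those of Ctsk and Gaa cross a dashed line.

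Among the peptidases, 10 of 11 were fitted higher in RIP1i, with a median log2 fold change of 0.037 and none past the threshold. Ctsl encodes cathepsin L, a cysteine endopeptidase (chromosome 13, 64359337 to 64370890, minus strand). Its levels were 964, 967 and 983 CPM in DMSO replicates 1 to 3 and 1017, 1030 and 1029 CPM in RIP1i replicates 1 to 3. All 3 RIP1i libraries lay above all 3 DMSO libraries. The log2 fold change was 0.078 ± 0.040 (SE), with an edgeR adjusted p of 0.786, and it ran from 0.061 to 0.083 when each library was left out in turn. Ctss was at 10952, 10583 and 10776 CPM in DMSO and 11381, 10557 and 12113 CPM in RIP1i, so that RIP1i replicate 2 lay below all DMSO libraries and replicates 1 and 3 above them. Its log2 fold change was 0.076, with 95% bounds of -0.080 and 0.23. Leaving out RIP1i replicate 3 brought it to 0.023.

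Lgmn had a log2 fold change of 0.054 (-0.054 to 0.16). Ctsb, a protease with both endopeptidase and dipeptidase action, had 0.042 (-0.089 to 0.17), and Ctsd had 0.037 (-0.12 to 0.19). The libraries of Ctsd overlapped widely, at 7577 to 8536 CPM in DMSO and 7820 to 8400 CPM in RIP1i. The remaining peptidases were Ctsz, Tpp1, Ctsc, which activates granule serine proteases, the aminopeptidase Ctsh, Ctsk and Ctsa. Of these only Ctsa was fitted lower. Several of these genes share exonic sequence with a neighbour in GENCODE M21, and the strand setting of the counting is not given in the sources used here. The shared part was 34.4% of exonic bases for Ctsd, 26.8% for Ctsl, 17.4% for Ctsa, where Pltp and Neurl2 run on the other strand, and 12.8% for Ctsb, where Fdft1 does. The partners were Gm49369 for Ctsd, and Gm49230 and Gm47123 for Ctsl. Under these symbols none was among the counted genes, so their counts could not be compared. Counts of the partners of Ctsa and Ctsb were far lower than those of the genes themselves. They were 3102 to 3878 for Pltp and 126 to 191 for Neurl2, against 58281 to 65433 for Ctsa. For Fdft1 they were 2143 to 2445, against 264156 to 291497 for Ctsb. Outside the peptidases, Hexa shared 12.8% of exonic bases, Lamp1 9.31%, Glb1 5.49%, Npc1 5.31% and Grn 1.96%. The partner of Hexa, Tmem202 on the other strand, had 130 to 179 counts, against 41309 to 47607 for Hexa. Tmppe, the partner of Glb1, lies on the same strand.

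Among the 36 genes Ctsk varied most between libraries, and it was singled out after its values were seen. It encodes cathepsin K, the collagen-degrading protease best known from osteoclasts (chromosome 3, 95499256 to 95509362, plus strand). It stood at 144, 167 and 134 CPM in DMSO replicates 1 to 3 and at 159, 106 and 189 CPM in RIP1i replicates 1 to 3. The lowest and the highest library were thus both RIP1i libraries, and they enclosed all of the DMSO libraries. Its coefficient of variation over the 6 libraries was 19.3%, the next highest of the 36 being Gaa with 11.6%. The mean of the DMSO libraries was 148 ± 17.3 CPM and that of the RIP1i libraries 151 ± 42.3 CPM (SD, n = 3). The fitted log2 fold change of 0.027 had an interval from -0.42 to 0.48. It was 0.22 without RIP1i replicate 2, -0.17 without RIP1i replicate 3, 0.11 without DMSO replicate 2, and between -0.049 and -0.0056 when 1 of the other 3 libraries was left out. Without DMSO replicate 2 and RIP1i replicate 2, the libraries of highest and lowest stromal marker level, it was 0.31 (edgeR adjusted p = 0.602). For Ctsk itself, too, DMSO replicate 2 was the top DMSO library and RIP1i replicate 2 the bottom RIP1i library.

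The other genes known from osteoclasts were mixed when set library by library beside Ctsk. Acp5, tartrate-resistant acid phosphatase, was at 111, 135 and 111 CPM in DMSO and 111, 85.0 and 129 CPM in RIP1i, with the same highest and lowest library in each group as Ctsk. Ocstamp, a protein of osteoclast fusion, was at 3.76, 4.88 and 3.82 CPM in DMSO and 5.03, 3.13 and 8.65 CPM in RIP1i, again lowest in RIP1i replicate 2 and highest in RIP1i replicate 3. Dcstamp, another fusion protein, did not share this pattern in DMSO, with 92.0, 91.0 and 107 CPM there and 109, 106 and 120 CPM in RIP1i. Nfatc1, the main transcription factor of osteoclast formation, was at 34.5, 29.2 and 29.7 CPM in DMSO and 29.2, 29.9 and 26.7 CPM in RIP1i, lowest in RIP1i replicate 3, where Ctsk was highest. Itgb3, the integrin beta 3 chain, was at 9.60, 10.9 and 8.27 CPM in DMSO and 9.32, 10.1 and 10.5 CPM in RIP1i, lowest in DMSO replicate 3. The gelatinase gene Mmp9 was at 1.66, 1.67 and 3.34 CPM in DMSO and 1.66, 1.35 and 1.62 CPM in RIP1i, highest in DMSO replicate 3, where Ctsk was lowest among the DMSO libraries. Calcr, the calcitonin receptor of mature osteoclasts, had 0 counts in all 6 libraries, and Oscar reached at most 0.180 CPM. The 8 osteoclast markers together ran from 253 to 273 CPM in DMSO and from 236 to 296 CPM in RIP1i, with 7 of 8 detected. The stromal collagen gene Col1a1 was at 29.1, 49.9 and 10.7 CPM in DMSO and 32.1, 10.2 and 21.9 CPM in RIP1i, and the neutrophil gene S100a8 at 133, 72.2 and 179 and at 135, 196 and 66.0 CPM. The part of these cell types in the spread of Ctsk was not tested.

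**Figure D3:**
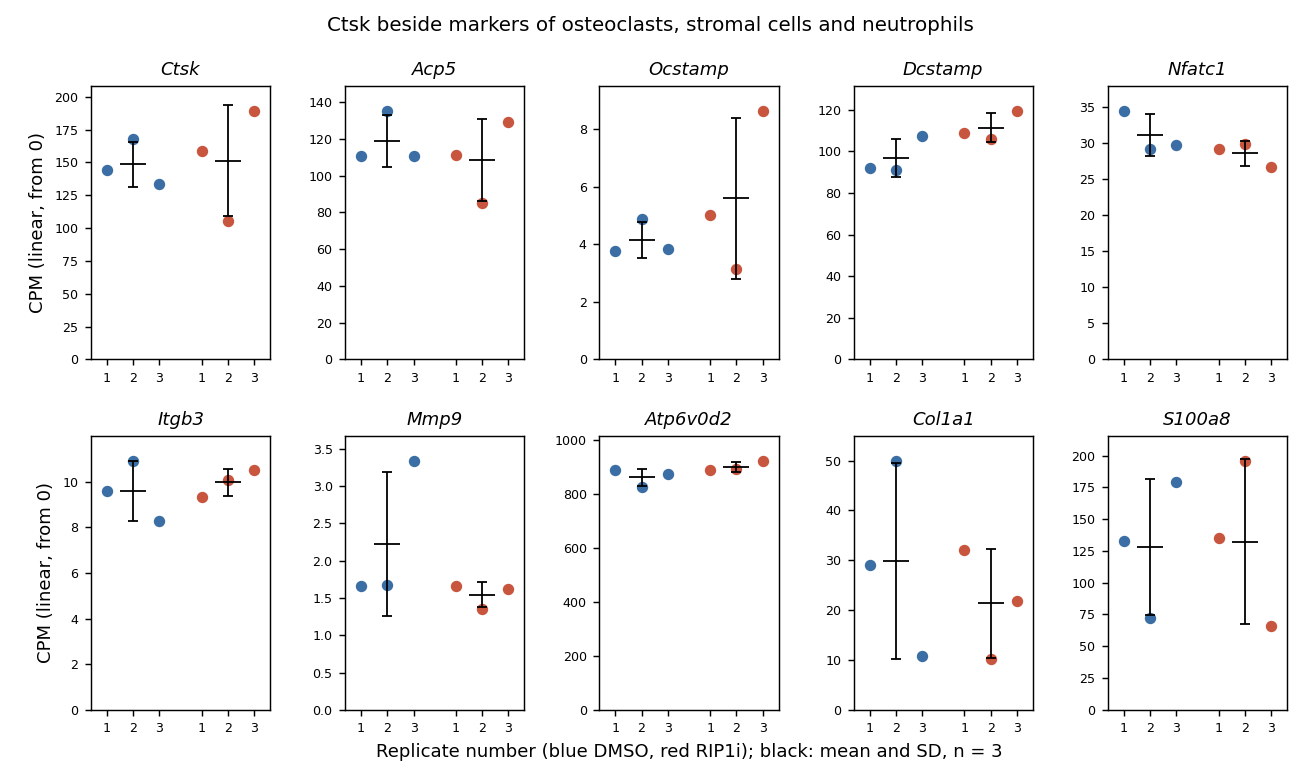
CPM (linear axes from 0) of Ctsk, of Acp5, Ocstamp, Dcstamp, Nfatc1, Itgb3, Mmp9 and Atp6v0d2, which are known from osteoclasts, of the stromal gene Col1a1 and of the neutrophil gene S100a8, in each DMSO library (blue) and RIP1i library (red), with the mean and SD of each group in black (n = 3). Ctsk, Acp5, Ocstamp and Mmp9 are lowest in RIP1i replicate 2, whereas Nfatc1 is lowest in RIP1i replicate 3, Itgb3 in DMSO replicate 3, and Dcstamp and Atp6v0d2 in DMSO replicate 2.

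The glycosidases were split, with 3 of 6 fitted higher and a median log2 fold change of 0.0066. Hexa had 0.068 ± 0.047 (SE), at 998, 1028 and 1052 CPM in DMSO and 1087, 1106 and 1033 CPM in RIP1i, so the groups overlapped through RIP1i replicate 3. Glb1 had 0.047 ± 0.036 and Gusb, beta-glucuronidase, 0.048 ± 0.046, the latter 0.0026 without DMSO replicate 1. Man2b1, the lysosomal alpha-mannosidase, and Neu1 were fitted slightly lower, with intervals within 1.25-fold. Gaa, which breaks down glycogen, was at 129, 148 and 115 CPM in DMSO and 127, 106 and 132 CPM in RIP1i. Its highest library was DMSO replicate 2 and its lowest RIP1i replicate 2. The log2 fold change of -0.10 (-0.36 to 0.16) became 0.078 without these 2 libraries.

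The genes of lipid breakdown, sterol transport and precursor supply were split in the same way, with 3 of 6 fitted higher and a median of -0.0029. Asah1, acid ceramidase, had a log2 fold change of 0.056 ± 0.051 (SE), Npc2 0.035 ± 0.053 and Grn -0.024 ± 0.047. Asah1 was at 0.010 without RIP1i replicate 3, and Npc2 at 0.0072 without RIP1i replicate 1 and 0.0086 without RIP1i replicate 3. Psap was the steadiest of the 36 genes, with a coefficient of variation of 1.39% over the 6 libraries. It was at 17587, 17894 and 18169 CPM in DMSO and 17634, 17521 and 17631 CPM in RIP1i, and the groups overlapped. Lipa, in contrast, ranged from 1022 CPM in RIP1i replicate 2 to 1271 CPM in RIP1i replicate 3, with the DMSO libraries from 1092 to 1211 CPM. Npc1 stayed between 434 and 460 CPM in all libraries.

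Of the 5 membrane proteins, 3 were fitted higher. Gpnmb (chromosome 6, 49036546 to 49070929, plus strand) was at 7203, 7109 and 7385 CPM in DMSO and 7790, 8100 and 7425 CPM in RIP1i. The groups did not overlap, although RIP1i replicate 3 exceeded DMSO replicate 3 by little. The fitted difference was 0.10 on the log2 scale (-0.029 to 0.24, edgeR adjusted p = 0.793). It was 0.062 without RIP1i replicate 2 and 0.048 without both DMSO replicate 2 and RIP1i replicate 2, its lowest and its highest library. Lamp2 (chromosome X, 38401357 to 38456454, minus strand), needed for the fusion of autophagosomes with lysosomes, was at 761, 704 and 711 CPM in DMSO and 756, 727 and 892 CPM in RIP1i. One library, RIP1i replicate 3, stood above the rest, and the other RIP1i libraries lay within the DMSO range. The log2 fold change of 0.13 (-0.062 to 0.31) was 0.028 without RIP1i replicate 3. Lamp1 did not share this pattern, at 2318 to 2393 CPM in DMSO and 2251 to 2422 CPM in RIP1i and a log2 fold change of -0.015 (-0.13 to 0.10). Laptm5 had 0.025 (-0.081 to 0.13), and the tetraspanin gene Cd63 stayed between 301 and 321 CPM in all libraries.

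The calcium channel and the transcription factors were all fitted lower, without passing. Mcoln1 (chromosome 8, 3500457 to 3515232, plus strand) was at 83.9, 84.4 and 85.2 CPM in DMSO and 81.9, 79.4 and 79.97 CPM in RIP1i. All 3 RIP1i libraries lay below all 3 DMSO libraries. The log2 fold change was -0.071 ± 0.035 (SE), the smallest unadjusted p of the 36 and an edgeR adjusted p of 0.786. Tfeb was at 50.3, 49.7 and 55.3 CPM in DMSO and 51.2, 52.1 and 50.8 CPM in RIP1i, a log2 fold change of -0.011 (-0.13 to 0.11). Tfe3 was at 81.4, 86.3 and 73.4 CPM in DMSO and 79.7, 70.1 and 79.7 CPM in RIP1i, a log2 fold change of -0.070 (-0.24 to 0.10). The groups overlapped for both factors. For Tfe3 the value was 0.030 without DMSO replicate 2 and RIP1i replicate 2, its highest and its lowest library, whose omission raises it. RNA levels do not report where these factors are in the cell.

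The proton pump is built from a soluble V1 part, which splits ATP, and a membrane V0 part, which carries the protons. Of the 5 pump genes among the 36, 4 were fitted higher in RIP1i, with a median log2 fold change of 0.048. Atp6v0d2 (chromosome 4, 19876841 to 19922605, minus strand), the form of subunit d known from osteoclasts and macrophages, was at 888, 826 and 873 CPM in DMSO and 888, 893 and 922 CPM in RIP1i. The groups were separated by less than 1 CPM, between DMSO replicate 1 and RIP1i replicate 1. The fitted difference was 0.064 on the log2 scale (-0.044 to 0.17, edgeR adjusted p = 0.834), and 0.028 at the lowest when 1 library was left out. Atp6v0d1, the widely expressed form of the same subunit, had 0.048 (-0.055 to 0.15). The catalytic subunit Atp6v1a of V1 and its partner Atp6v1b2 were at 777 to 925 and 733 to 804 CPM over the 6 libraries. Atp6ap1, an accessory protein of the pump, had 0.043 (-0.055 to 0.14).

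The paralogs in use were the same in every library. Per length, Atp6v0d2 exceeded Atp6v0d1 by 2.09 to 2.32 times. Tcirg1, the a3 form of subunit a, which is typical of osteoclasts and macrophages, exceeded Atp6v0a1 by 2.43 to 3.61 times and Atp6v0a2 by 11.2 to 13.6 times in FPKM. Of the forms known from kidney and other epithelia, Atp6v1b1 and Atp6v1g3 had 0 counts in all 6 libraries, and Atp6v0a4 and Atp6v1c2 had at most 2 counts in a library. Among the other 20 pump genes, 15 were tested and 11 of them were fitted higher, with 0 past the threshold. Atp6ap2, the second accessory protein, was at 409, 404 and 396 CPM in DMSO and 441, 426 and 499 CPM in RIP1i, with no overlap between groups. The fitted difference was 0.18 on the log2 scale (0.031 to 0.32, edgeR adjusted p = 0.777). Atp6v1g1, a subunit of the V1 stalk, had 0.10 ± 0.044 (SE), and Atp6v0e2, at 0.142 to 0.423 CPM, had -0.77 ± 0.33.

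**Figure D4:**
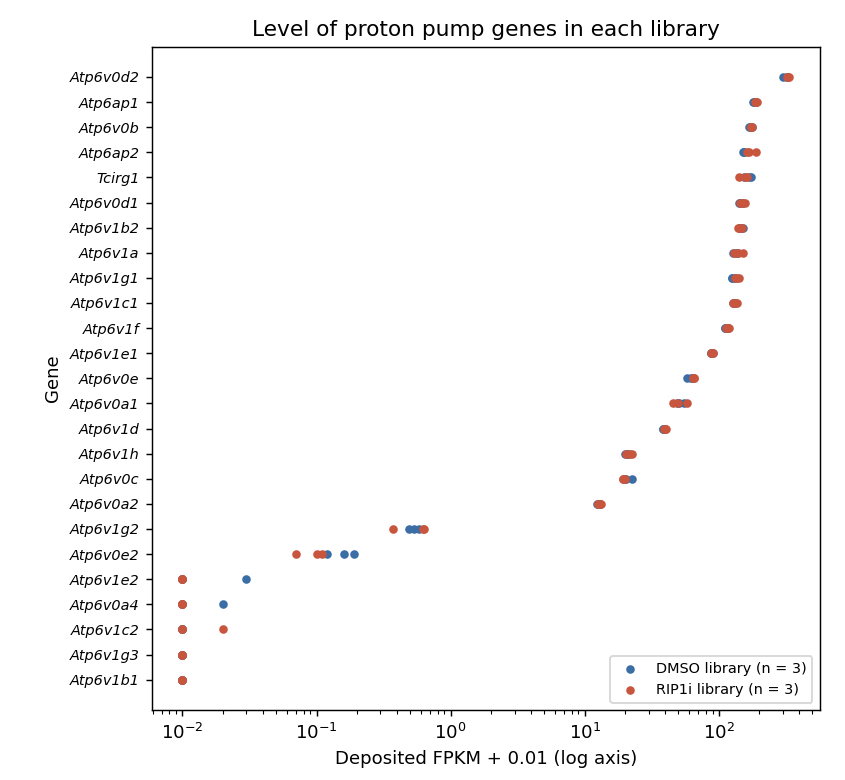
Deposited FPKM plus 0.01 (horizontal log axis) of the 25 proton pump genes, those among the 36 and the other subunits, in each DMSO library (blue) and RIP1i library (red). Most of the genes lie between 12.4 and 336 FPKM, Atp6v1g2 and Atp6v0e2 lie below 1 FPKM, and the 5 lowest genes lie at or near 0.

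Wider lists of the pathway gave no call either. Of 126 further genes of the lysosome and its control, 119 were tested, with 80 fitted higher (67.2%, against 51% of all tested genes) and 39 lower. The number fitted higher fell to between 69 and 74 when each library was left out in turn. It was 74 with median-of-ratios scaling and 81 with no filter. None of the 119 passed the threshold of edgeR's test, and 3 higher and 3 lower had an unadjusted p under 0.05, where 6.21% of all tested genes did. Of 35 tested hydrolases, 27 were fitted higher. Ctso, a little-studied cysteine cathepsin, was at 38.9, 36.04 and 38.9 CPM in DMSO and 41.8, 45.6 and 42.3 CPM in RIP1i, a log2 fold change of 0.19 ± 0.053 (SE) with an edgeR adjusted p of 0.777. Prcp, a carboxypeptidase, had 0.083 ± 0.049 and Naglu, which acts on heparan sulfate, 0.075 ± 0.045. Of 26 tested membrane and sorting genes, 15 were fitted higher. Cd164, a sialomucin of endosomes and lysosomes, was at 254, 209 and 241 CPM in DMSO and 268, 287 and 319 CPM in RIP1i, a log2 fold change of 0.31 ± 0.088 with an edgeR adjusted p of 0.777. The channel genes Tpcn2 and Mcoln3 had -0.12 ± 0.050 and 0.097 ± 0.046.

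Genes that control TFEB and autophagy were also without a call. In the list of the TFEB family and of mTORC1 control, 10 of 19 were fitted higher and 9 lower. Rptor, the scaffold of mTORC1, was at 34.7, 36.2 and 35.4 CPM in DMSO and 32.5, 31.7 and 33.7 CPM in RIP1i, a log2 fold change of -0.12 ± 0.044 (SE) with an edgeR adjusted p of 0.777. Lamtor1, which anchors mTORC1 to the lysosome, had 0.075 ± 0.036, and Tsc2, an upstream inhibitor of mTORC1, -0.071 ± 0.038. Of 16 autophagy genes, 10 were fitted higher. Ulk1, the kinase that starts autophagy, was at 20.6, 20.8 and 18.9 CPM in DMSO and 17.2, 16.5 and 18.2 CPM in RIP1i, with no overlap. Its log2 fold change was -0.21 ± 0.062, with an edgeR adjusted p of 0.777. Atg5 and Gabarap, of the conjugation system, had 0.067 ± 0.039 and 0.069 ± 0.044.

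Across the libraries the 36 genes varied together only in part. RIP1i replicate 3 was the highest library for 16 of the 36 genes and RIP1i replicate 2 the lowest for 14, so both ends lay in the same group. The next counts were 6 genes highest in each of DMSO replicates 2 and 3, and 8 genes lowest in DMSO replicate 3. The median deviation of the 36 genes from their means was 0.044 in RIP1i replicate 3 and -0.038 in RIP1i replicate 2 on the log2 scale, and between -0.023 and 0.019 in the other 4. These 2 libraries, RIP1i replicates 3 and 2, also differed in neutrophil markers, with sums of 223 and 656 CPM, and in stromal markers, with 180 and 76.8 CPM. Their macrophage markers summed to 53698 and 44151 CPM, and their dendritic cell markers to 1325 and 1466 CPM. The sums were 175 and 211 CPM for mast cell, basophil and eosinophil markers and 296 and 236 CPM for osteoclast markers. The part of those cells in the lysosomal levels was not tested. The other order, higher in RIP1i replicate 2 than in RIP1i replicate 3, was found for 9 genes, namely Hexa, Gpnmb, Grn, Npc1, Laptm5, Cd63, Tfeb, Atp6v0d1 and, by a small margin, Ctsl.

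**Figure D5:**
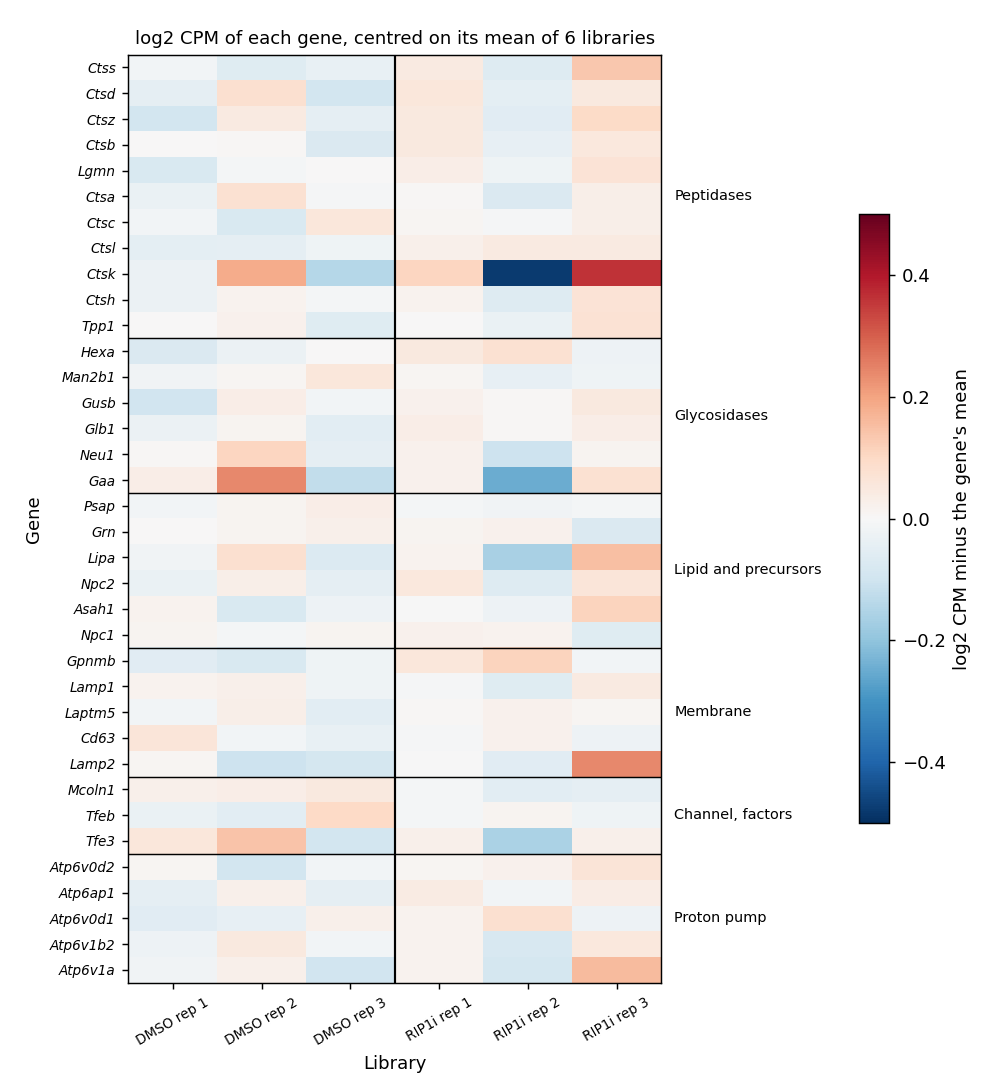
log2 CPM of each of the 36 genes (rows, grouped by role) in each library (columns), centred on the gene's mean over 6 libraries, from blue (lower) to red (higher). RIP1i replicate 3 is the highest library for 16 genes and RIP1i replicate 2 the lowest for 14, and Ctsk shows the strongest contrast between them.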

How the data were processed

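The authors deposited raw counts per gene and FPKM values for the same genes in 6 libraries. The submitters' processing notes list the mm10 build, the aligner STAR (2.5.3a), featureCounts from Subread (1.4.6-p3), DESeq2 (1.14.0) and CASAVA (1.8.4), without roles or order. The sources used here do not give the annotation, the strand setting or how multiply mapping reads were treated. The deposited FPKM values equal the counts divided by a gene factor and rescaled per library by the inverse median-of-ratios size factor (difference of -0.0001455% to 9.9e-05% by library), so they hold the same reads.

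Counts were filtered with filterByExpr (minimum count 10, minimum total 15), TMM-scaled and fitted over all genes with edgeR 4.0.16 in R 4.3.3 (quasi-likelihood F test, 2-sided, treatment as the only term, 95% intervals from the t distribution, SE from the F statistic), with Benjamini-Hochberg adjusted p under 0.05 as threshold. Alternatives used DESeq2 1.42.0, limma 3.58.1 (voom, and trend on log2 FPKM), other scalings, filters, a replicate term and omitted libraries. The fits were tested on simulated data. Gene positions are from GENCODE M21. The 36 genes and all lists were chosen with earlier results of these data known. Every one of the 36 is named. Fold changes are given for the 3 with the smallest p in each role, 8 fixed genes (Tfeb, Tfe3, Atp6v0d2, Gpnmb, Ctsd, Ctsb, Ctss, Lamp1) and, chosen after their values were seen, Ctsk and Gaa. Of each wider list, up to 3 genes with the smallest p are named. Paralogs and genes compared for level are named beyond that rule. One lymphocyte marker is not reported here.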

Additional observations from a re-analysis of the deposited data

How the results depend on the processing

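No gene of the 36 was called under any alternative, and the smallest adjusted p among them ran from 0.602 to 1.00. Over all genes, DESeq2 called 2, and limma on log2(FPKM + 1) with no filter called 4. The number of the 36 fitted higher was 23 and ran from 19 to 25 when 1 library was left out. It was 27 without DMSO replicate 2 and RIP1i replicate 2, an alternative chosen after seeing the data. RIP1i replicate 2 was the lowest library for 14 of the 36, so leaving it out favoured higher fitted values. The median log2 fold change of 0.027 ran from 0.0091 to 0.039 and was 0.047 in that alternative. With the replicate block, 22 were fitted higher, the median was 0.025 and 0 genes were called. Same-numbered libraries deviated from their group means with correlations of -0.038, -0.62 and -0.59, and 0 of 6 libraries matched best with its own number. With 3 libraries per group this does not settle whether the numbers pair the samples.

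Fitted signs near 0 turned in some settings. Ctsk was -0.0080 with limma-voom, -0.0050 with the replicate block, -0.010 with log2(FPKM + 1), with or without a filter, and -0.011 with log2(FPKM + 0.1). Leaving out 1 library gave -0.17 to 0.22 for Ctsk, -0.0030 to 0.082 for Ctsd, -7.8e-05 to 0.040 for Laptm5, -0.046 to 0.035 for Tfeb, -0.045 to 0.00031 for Lamp1 and -0.051 to 0.0012 for Grn. The same omissions moved other values by over 1.5 times with no change of sign, to 0.0026 for Gusb (without DMSO replicate 1), 0.0072 for Npc2 (RIP1i replicate 1), 0.0087 for Atp6v0d1 (RIP1i replicate 2), 0.010 for Asah1, 0.023 for Ctss and 0.028 for Lamp2 (RIP1i replicate 3), 0.012 for Ctsb and 0.029 for Glb1 (DMSO replicate 3), 0.019 for Lgmn and 0.020 for Atp6ap1 (DMSO replicate 1), 0.028 for Atp6v0d2 (DMSO replicate 2), 0.037 for Hexa and 0.062 for Gpnmb (RIP1i replicate 2), -0.0090 for Gaa (DMSO replicate 2) and -0.022 for Tfe3 (RIP1i replicate 2). Without DMSO replicate 2 and RIP1i replicate 2, Atp6v0d1 was -0.0017, Gaa 0.078, Lamp1 0.0071 and Tfe3 0.030. For Gaa and Tfe3 these were the highest and the lowest library, so leaving them out raises the value. The cause of the other turns was not tested. Ctsl, Gpnmb, Atp6v0d2 and Mcoln1 kept their sign in every setting run. Their groups did not overlap, so leaving out libraries could hardly turn the sign. Asah1, Atp6ap1, Ctsb, Ctss, Glb1, Gusb, Hexa, Lamp2, Lgmn and Npc2 kept theirs too, although their groups overlapped.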

Other observations

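Inhibitors of the cathepsins stood at very different levels. Cst3, which encodes the secreted inhibitor cystatin C, ranked 30 among all genes with 961 to 1103 FPKM, and Cstb, the intracellular inhibitor cystatin B, ranked 66 with 452 to 475 FPKM. Both were fitted slightly higher in RIP1i, at 0.066 ± 0.053 and 0.050 ± 0.034 (SE) on the log2 scale, without passing, and for Cstb the groups did not overlap. Cst6 was fitted at 0.40 ± 0.24 with 0.523 to 0.942 CPM. Of the 8 inhibitor genes, 7 were fitted higher and 0 passed edgeR's test.

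The stefin A genes Stfa1, Stfa2, Stfa3 and Stfa2l1, near-identical copies among which reads cannot be assigned with certainty, varied several times between libraries of the same group. Their summed level was 19.1, 8.24 and 25.1 CPM in DMSO replicates 1 to 3 and 19.7, 24.6 and 9.37 CPM in RIP1i replicates 1 to 3. The summed neutrophil markers had the same low libraries, with 226 CPM in DMSO replicate 2 and 223 CPM in RIP1i replicate 3, against 457 to 656 CPM in the other 4. By smaller margins, so did 2 other sums within each group. They were 170 and 175 CPM for mast cell, basophil and eosinophil markers and 1217 and 1325 CPM for dendritic cell markers. Ctsg, the granule protease cathepsin G, was also lowest in those libraries of each group, at 0.871 and 0.604 CPM.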
